A study of Clonorchis sinensis with 4 samples.

Results

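The liver fluke Clonorchis sinensis lives as an adult in the bile ducts of fish-eating mammals, people included. The entries described here are 81 predicted miRNAs that the submitters placed on scaffolds of the fluke's own genome. They were taken from the small RNA tables of 3 life stages as all entries of the predicted class whose scaffold name begins with DF14, less 13 ids, of which 3 (novel_mir3, novel_mir8 and novel_mir15) lie on such scaffolds. The stage tables hold 138 predicted and 55 known miRNAs, 193 in all, so these are 81 of 84 predicted miRNAs with a DF14 scaffold and 81 of 193 miRNAs. The 54 remaining predicted miRNAs lie on scaffolds with other name prefixes. The species of the DF14 scaffolds was checked against the scaffold table of the vesicle library, where 1 row with that prefix carries a description, and it names C. sinensis.

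The stages were eggs, metacercariae (the resting larvae in fish) and adult worms, and the fourth library held extracellular vesicles secreted by adults. Each group is 1 library of total RNA, and the labels give no treatment, strain, host, worm age or number of worms. No group has a replicate, so every difference below compares 2 libraries, and no p-value is given.

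MicroRNAs are short RNAs cut from a hairpin-shaped precursor, and they guide Argonaute proteins to messenger RNAs that match their seed, which lowers the output of those messengers. Prediction programs call a miRNA where small RNA tags stack on a stretch of genome that can fold into such a hairpin. A call of this kind rests on tags and folding, and it does not by itself give a target or a function, so none is given for any of the 81 entries. Known flatworm miRNAs are often kept from species to species, while predicted ones with no named counterpart can be particular to a lineage or can be chance hairpins.

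In units of 1000000 tags, the annotated tags of adults came to 19.4, those of eggs to 20.5, those of metacercariae to 20.5 and those of vesicles to 2.36. The miRNA tags among them were 3567193, 4339591, 8559610 and 302004. Values are given as RPM, meaning tags per 1000000 miRNA tags of the same library. Predicted miRNAs are listed from 10 tags upward, and an unlisted one was taken to hold at most 9 tags, which is 2.52 RPM in adults, 2.07 in eggs and 1.05 in metacercariae. Intervals are exact at 95%. They cover counting error only, because reads of 1 amplified molecule are not separate observations.

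The 81 entries were scarce as a group, and 1 of them held the largest share of their tags in every stage. They held 0.931% of miRNA tags in adults (Clopper-Pearson interval 0.921 to 0.941), 0.635% in eggs (0.627 to 0.642) and 0.697% in metacercariae (0.691 to 0.702). novel_mir7 (scaffold DF143264, 260595 to 260658) alone made up 64.0% of these tags in adults, 42.5% in eggs and 62.4% in metacercariae. Without it the shares were 0.335%, 0.365% and 0.262%. The median listed entry had 82 tags in adults, 75 in eggs and 56 in metacercariae, against 3795, 3144 and 7125 tags for the median known miRNA of the same library. At least 100 tags were held by 24 entries in adults, 17 in eggs and 24 in metacercariae, and at least 1000 by 4 in each.

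novel_mir7 had 21248 tags in adults, 11702 in eggs and 37188 in metacercariae. Its level was 5957 RPM in adults, 2697 in eggs and 4345 in metacercariae, and it ranked at place 22 of 152, 26 of 147 and 23 of 161 among the miRNAs of those libraries. It was the most abundant of the 81 in every stage, and its adult level was 2.21 times its egg level (2.16 to 2.26). On the authors' RPM of all annotated tags the order of its stages was another, with 1815 RPM in metacercariae, 1095 in adults and 570 in eggs. Next by mean level was novel_mir155 (DF144274, 133308 to 133389), with 2182 tags in adults, 8264 in eggs and 2293 in metacercariae, or 612, 1904 and 268 RPM. It stood highest in eggs. novel_mir75 (DF142892, 690903 to 690975) held 1433, 1937 and 7025 tags in the same order, or 402, 446 and 821 RPM, with the highest level in metacercariae. novel_mir14 (DF143014, 391710 to 391776) had 438, 1851 and 3667 tags. Its level was 427 RPM in eggs, 428 in metacercariae and 123 in adults, an egg to metacercaria ratio of 0.996 (0.941 to 1.05). That equality depended on the scale, since on the authors' RPM it stood at 90.1 in eggs and 179 in metacercariae.

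The places down to rank 12 were taken by entries of moderate level, most of them highest in adults on the scale of miRNA tags. novel_mir18 had 1029 tags in adults, 219 in eggs and 640 in metacercariae. novel_mir25 (DF143638, 80678 to 80732) had 629, 205 and 781 tags, or 176, 47.2 and 91.2 RPM. novel_mir163 (DF143148, 329093 to 329156) had 611, 366 and 332 tags, or 171, 84.3 and 38.8 RPM. All of these were highest in adults on the RPM scale, although novel_mir25 had more tags in the larger metacercaria library. novel_mir126 (DF143585, 136657 to 136721) had 663, 250 and 356 tags, or 186, 57.6 and 41.6 RPM. novel_mir175 (DF142933, 642976 to 643031) had 541, 213 and 383 tags, or 152, 49.1 and 44.7 RPM. Both thus stood at least 3 times higher in adults than in either other stage on this scale. With the authors' RPM the gap of adults to metacercariae was smaller, 34.2 against 17.4 for novel_mir126 and 27.9 against 18.7 for novel_mir175. novel_mir21 (DF142899, 822605 to 822657) had 360, 193 and 668 tags, or 101, 44.5 and 78.0 RPM. novel_mir24 (DF142972, 119890 to 119950) had 345, 75 and 543 tags, or 96.7, 17.3 and 63.4 RPM. Adults were again the highest, but with the authors' RPM metacercariae were the highest stage for novel_mir25, novel_mir21 and novel_mir24, and adults only for novel_mir18, novel_mir163, novel_mir126 and novel_mir175 of these 7. The last of the 12, novel_mir26, had 187, 38 and 965 tags and stood highest in metacercariae.

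**Figure D1:**
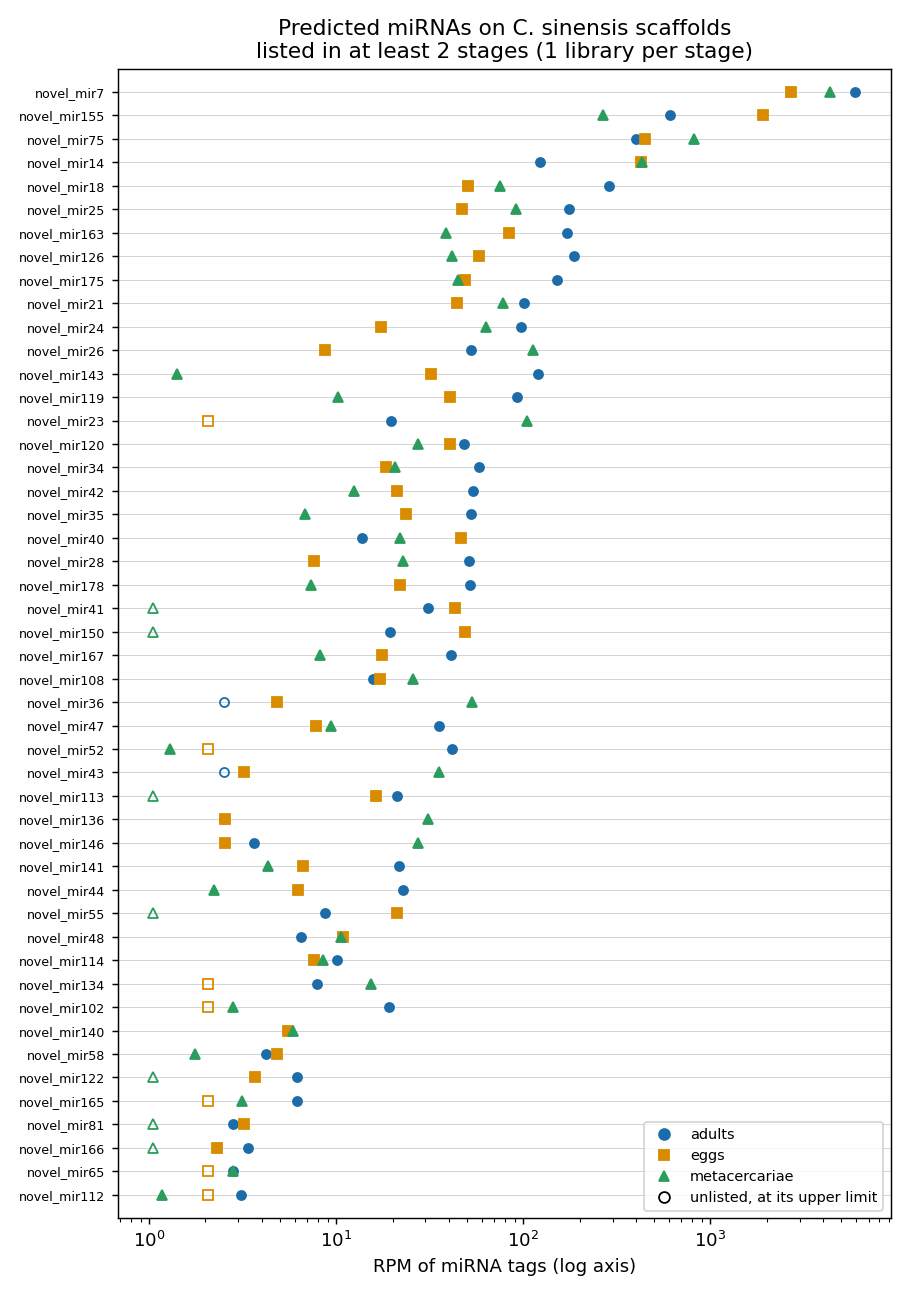
Level of the 48 entries listed in at least 2 stages, as RPM of miRNA tags on a log axis, with 1 point per library and an open point at the upper limit of an unlisted value (that of novel_mir136 in adults lies under its egg point). novel_mir7 stands at 2697 to 5957 RPM, and the levels below the leading 4 entries spread from about the listing minimum to 288 RPM.

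Presence across stages was uneven. Of the 81 entries 51 were listed in adults (63.0%), 45 in eggs (55.6%) and 64 in metacercariae (79.0%). All 3 stages listed 31 entries (38.3%), exactly 2 stages listed 17 and exactly 1 stage listed 33 (40.7%). The entries in 2 stages were 7 of adults and eggs, 7 of adults and metacercariae and 3 of eggs and metacercariae. The single-stage entries were 23 of metacercariae, 6 of adults and 4 of eggs. Among the 54 predicted miRNAs on other scaffolds, 33 (61.1%) were in all 3 stages and 10 (18.5%) in 1 stage, of which 3 were of metacercariae. With the 3 left-out ids put back, 33 of 84 entries on DF14 scaffolds were in all 3 stages and 33 in 1 stage. No test of this difference was run. The median of summed tags in the all-stage entries was 4257 on other scaffolds and 463 in the 81, and in the single-stage entries 16 and 27. Listing needs 10 tags, so the contrast is not read as narrower stage use, and the part of abundance in it was not tested. The left-out ids on other scaffolds remain among the 54.

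**Figure D2:**
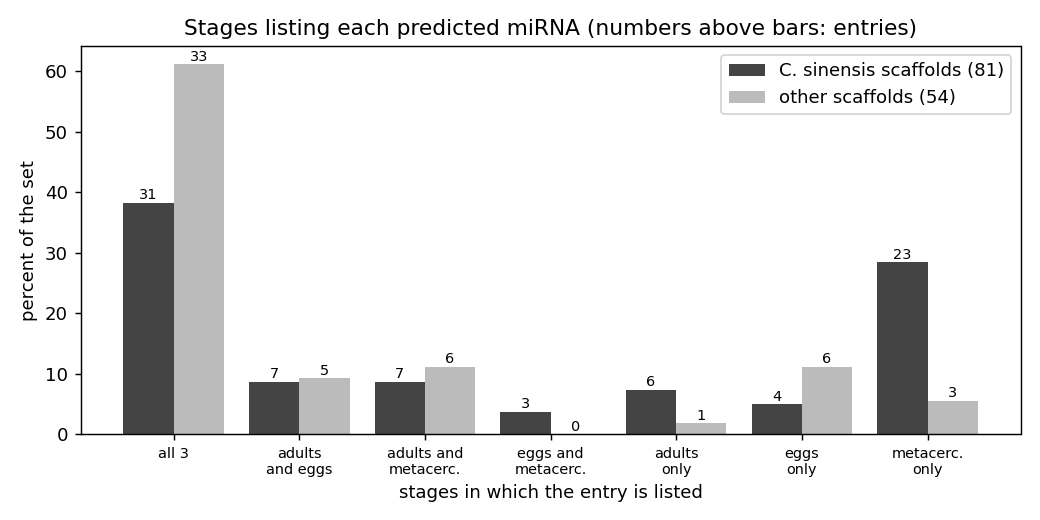
Percent of each set listed in each combination of stages, with the number of entries above the bars, for the 81 entries on C. sinensis scaffolds and the 54 predicted miRNAs on other scaffolds. The first set has 31 entries in all 3 stages and 23 in metacercariae only, and the second has 33 and 3.

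The summed tags over the 3 libraries had a median of 463 in the 31 entries of all stages, 146 in the 17 entries of 2 stages and 27 in the 33 entries of 1 stage. The summed tags of single-stage entries ran from 10 to 84. This order is largely built in, because the same tags decide the listing and more listed libraries add to the sum. A scarce entry can also fall under 10 tags in a stage without any difference in level.

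The adult-only entries were novel_mir57, novel_mir161, novel_mir62, novel_mir59, novel_mir169 and novel_mir72. novel_mir57 (DF143031, 485466 to 485541) had 84 tags and novel_mir161 (DF144345, 69192 to 69256) had 82. novel_mir62 (DF143684, 26073 to 26134) had 71 tags and novel_mir59 (DF144012, 305205 to 305243) had 51. For these 4 the ratio to each other stage, with 9 tags in place of the unlisted value, had a counting interval above 2-fold. novel_mir169 and novel_mir72 had 19 and 13 tags, and their intervals reached below 2-fold.

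The egg-only entries were novel_mir60 (DF143747, 39763 to 39818) with 56 tags, novel_mir64 with 35, novel_mir116 with 11 and novel_mir91 with 10. novel_mir60 was the only one of the 4 with an interval above 2-fold against both other stages. The metacercaria-only entries ran from 10 to 68 tags with a median of 19. They were led by novel_mir172 (DF143656, 41367 to 41440) with 68 tags, novel_mir99 with 54, novel_mir123 with 47, novel_mir154 with 45 and novel_mir53 with 42. novel_mir142 and novel_mir160 had 41 tags each, novel_mir159 had 37, novel_mir173 had 36, novel_mir158 had 33 and novel_mir162 had 27. The other 12, with 10 to 19 tags, were novel_mir66, novel_mir87, novel_mir103, novel_mir107, novel_mir128, novel_mir132, novel_mir133, novel_mir137, novel_mir153, novel_mir168, novel_mir170 and novel_mir176.

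None of the 23 had an interval above 2-fold against both other stages when scaled to miRNA tags. At equal RPM of miRNA tags 11 of them would reach 10 tags in both other libraries, and 12 would not. Scaled to all annotated tags, where the 3 libraries are of nearly the same size, 22 of 23 would reach 10 tags and 7 had intervals above 2-fold. The choice between these scales was not settled by any value here, because the share of tags that are miRNAs itself differed between the libraries.

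In the stage comparisons higher and lower entries are those that met 3 conditions. With 1 RPM added to both levels they differed by a factor of 4 or more, the larger count was 10 tags or more, and the whole interval of the plain ratio was past 2-fold. The printed ratios have nothing added. Where 1 of the libraries did not list the entry, the ratio is a bound and is written as at least. Entries unlisted in both libraries were not compared. Over the 3 comparisons 34 of 81 entries were counted at least once and 47 never. The matching number over all miRNAs was not counted. Within each comparison the percent counted either way was no higher in the entries than over all miRNAs compared. It was 20.7% against 27.5% for eggs against adults and 32.47% against 32.97% for metacercariae against adults. For eggs against metacercariae it was 20% against 32.3%. The comparisons share libraries, so their counts are not independent of each other. The median listed entry had far fewer tags than the median known miRNA, and scarce entries have less room to meet the 3 conditions. The lower shares are therefore not read as steadier levels.

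Metacercariae against adults gave the most counted entries, 5 higher and 20 lower of 77 compared. Over all 182 miRNAs compared, 9.34% were higher and 23.6% lower, and the shares of the 77 were 6.49% and 26.0%. The median log2 ratio was -0.62 over the 77 and -0.75 over the 182. The rule was not even-handed here, since an unlisted value stood at 2.52 RPM in adults and at 1.05 in metacercariae. An entry unlisted in adults thus needed a higher level to be counted than 1 unlisted in metacercariae. None of the 23 metacercaria-only entries, with at most 68 tags, was counted. With unlisted values taken as 0, 16 were higher and 24 lower, against 15.9% and 26.4% over all miRNAs. Eggs against metacercariae gave 8 higher and 7 lower of 75, which is 10.7% and 9.33%, against 16.1% higher and 16.1% lower over 186 miRNAs, with medians of 0.04 and 0.22. Eggs against adults gave 0 higher and 12 lower of 58, or 20.7% lower, against 6.59% higher and 21% lower over 167 miRNAs, with medians of -1.03 and -0.60. The shares counted as lower were close to those of all miRNAs in both comparisons with adults. The 3 ids on DF14 scaffolds that were left out had been chosen for their stage levels, and with them the lower counts were 15 in eggs against adults, 21 in metacercariae against adults and 9 in eggs against metacercariae.

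**Figure D3:**
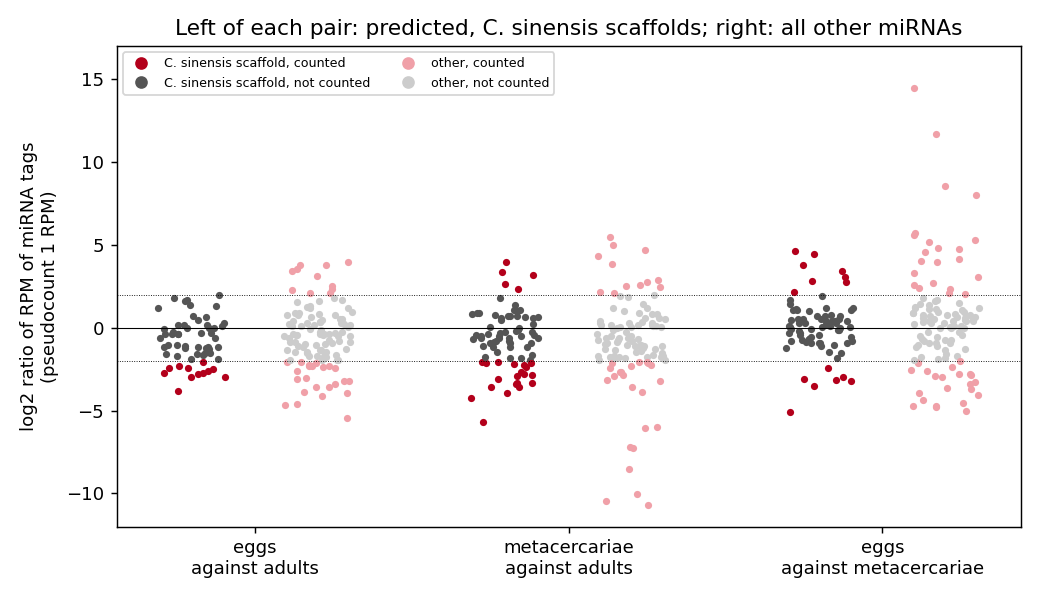
Log2 ratio of RPM of miRNA tags (1 RPM added) for each comparison, with the 81 entries in the left column of each pair and all other miRNAs in the right, 1 point per miRNA compared. Dotted lines mark 4-fold, and the entries of C. sinensis scaffolds have 0, 5 and 8 counted higher and 12, 20 and 7 counted lower from left to right.

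Many of these counts changed with the scale and with the RPM added. With the authors' RPM of all annotated tags, 0 higher and 4 lower were counted in eggs against adults, 8 higher and 3 lower in metacercariae against adults, and 3 higher and 9 lower in eggs against metacercariae. Among these novel_mir14, novel_mir26 and novel_mir75 were newly higher in metacercariae than in adults, and novel_mir24 and novel_mir28 newly lower in eggs than in metacercariae. Over all miRNAs on that scale, 6.59% were higher and 12.6% lower in eggs against adults. The shares were 16.5% and 6.59% in metacercariae against adults, and 10.2% and 21.0% in eggs against metacercariae. The change of total moves every log2 ratio with nothing added by 0.20, 1.18 and -0.98 in the 3 comparisons, and 1 RPM added weighs more on that scale. With 0.2 RPM added there, a setting chosen after seeing the data, the counts were 1 and 11, 11 and 9, and 6 and 11. With median-of-ratios size factors, which move the ratios by 0.78, 0.85 and -0.07, the counts were 5 and 6, 6 and 11, and 8 and 7. Over all miRNAs the shares were then 12.0% and 11.4%, 13.2% and 13.2%, and 15.6% and 16.1%. No counted entry changed sign under any of these scales. That was fixed in advance, because no scale moved a log2 ratio by more than 1.18, which is less than the 4-fold limit. The median log2 ratio of metacercariae against adults was 0.16 over the 77 entries and 0.11 over all 182 miRNAs with the authors' RPM. With the size factors it was -0.08 over both. A change of totals moves all miRNAs alike, and the 77 are part of the 182, so nothing about the group is read from this.

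The entries counted as high in metacercariae against at least 1 other stage under every scaling tried were 7, novel_mir23, novel_mir26, novel_mir36, novel_mir43, novel_mir134, novel_mir136 and novel_mir146. All 7 were lower in eggs than in metacercariae, and 5 of them (novel_mir23, novel_mir36, novel_mir43, novel_mir136 and novel_mir146) were also higher in metacercariae than in adults. How many of all miRNAs met the same condition was not counted. The other totals mostly moved ratios toward these calls. With the authors' RPM, the size factors and the most abundant miRNA left out, metacercariae against adults moved by 1.18, 0.85 and -0.12. In the same order, eggs against metacercariae moved by -0.98, -0.07 and -0.003. Keeping the 7 entries under every scaling was therefore a weak check.

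novel_mir23 (DF142876, 442825 to 442900) had 70 tags in adults, was unlisted in eggs and had 899 in metacercariae. The metacercaria level of 105 RPM was 5.35 times the adult level of 19.6 (4.19 to 6.93) and at least 50.6 times the egg level. novel_mir26 (DF143460, 7959 to 8040) had 187, 38 and 965 tags in adults, eggs and metacercariae, and was 12.9 times as high in metacercariae as in eggs (9.31 to 18.3). Its ratio to adults was 2.15 (1.84 to 2.53), which was not counted. For novel_mir26 the adults thus stood between the other stages, while for novel_mir23 the eggs were below listing.

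novel_mir36 (DF142853, 783117 to 783174) was unlisted in adults and had 21 tags in eggs and 456 in metacercariae. It was at least 21.1 times as high in metacercariae as in adults and 11.0 times as high as in eggs (7.12 to 18.0). novel_mir43 (DF144243, 118515 to 118580) was likewise unlisted in adults, with 14 tags in eggs and 305 in metacercariae, and gave ratios of at least 14.1 and of 11.0 (6.48 to 20.4). novel_mir136 (DF142865, 664762 to 664820) repeated this order with 11 tags in eggs and 266 in metacercariae, and its ratios were at least 12.3 and 12.3 (6.74 to 24.9).

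novel_mir146 (DF144088, 4651 to 4706) had 13 tags in adults, 11 in eggs and 234 in metacercariae. It was 7.50 times as high in metacercariae as in adults (4.30 to 14.3) and 10.8 times as high as in eggs (5.92 to 21.9), while the interval of its egg to adult ratio (0.282 to 1.68) included 1. With 5 RPM added in place of 1, the call of novel_mir146 against adults was lost (log2 1.90). novel_mir134 (DF144549, 59725 to 59770) had 28 tags in adults and 131 in metacercariae and was unlisted in eggs. Its metacercaria level was at least 7.38 times that of eggs and 1.95 times that of adults (1.29 to 3.05), the latter not counted. The call of novel_mir134 against eggs was lost with 5 RPM added (log2 -1.52).

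The entries counted as low in metacercariae against at least 1 other stage under every scaling were 4, novel_mir41, novel_mir52, novel_mir143 and novel_mir150. For this condition too, the number over all miRNAs was not counted. The shifts of scale given above for the 7 high entries mostly went against low calls, so the 4 and the 7 are not compared. novel_mir143 (DF143312, 218389 to 218466) had 430 tags in adults, 139 in eggs and 12 in metacercariae. The adult level of 121 RPM was 86.0 times the metacercaria level of 1.40 (48.7 to 168), and the egg level of 32.0 was 22.8 times that level (12.7 to 45.3). Adults stood above eggs by 3.76 times (3.10 to 4.59), which fell short of the 4-fold limit but was counted without the most abundant miRNA of each library in the totals. It had the widest range of the 31 entries listed in all stages.

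novel_mir41 (DF143406, 85190 to 85248) had 110 tags in adults and 188 in eggs and was unlisted in metacercariae, which puts adults at least 29.3 times and eggs at least 41.2 times above that stage. novel_mir150 (DF144354, 107864 to 107920) had 69 tags in adults and 213 in eggs and was also unlisted in metacercariae. Eggs were at least 46.7 times above metacercariae, and adults at least 18.4 times, a call that was lost with the authors' RPM (log2 -1.66). With 0.2 RPM added on that scale, the call against adults was kept (log2 -2.55). novel_mir52 (DF143242, 174678 to 174755) was an adult entry, with 148 tags there, 11 in metacercariae and none listed in eggs. It was 32.3 times as high in adults as in metacercariae (17.5 to 66.1) and at least 20.01 times as high as in eggs, and it was the only one of the 12 egg-low entries that was counted under all 3 other scalings.

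**Figure D4:**
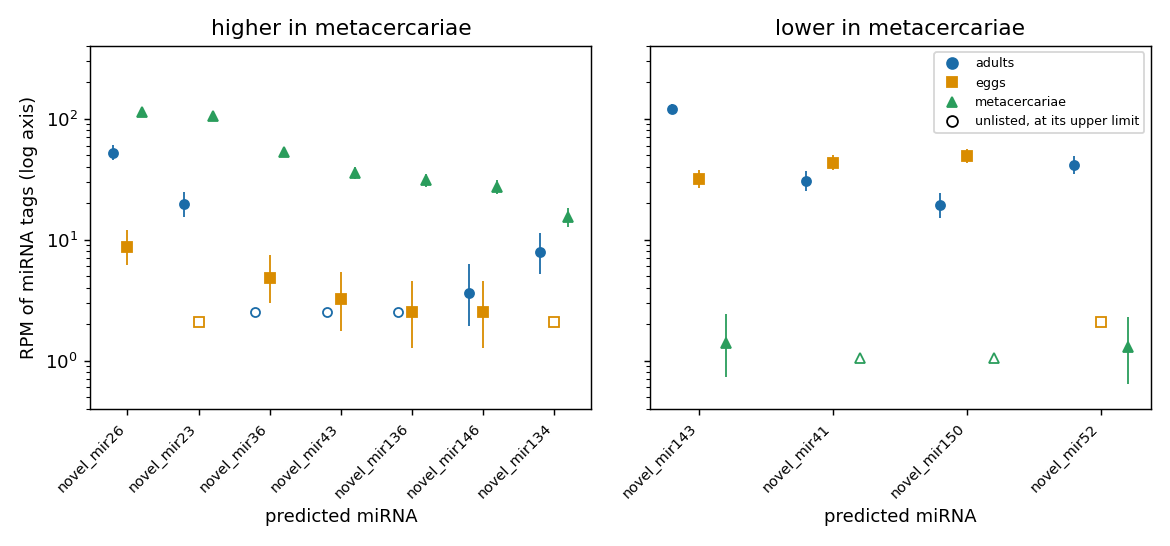
RPM of miRNA tags on a log axis for the 7 entries counted as higher and the 4 counted as lower in metacercariae against at least 1 other stage under every scaling, with 1 library per stage, exact 95% counting intervals as bars and open points at the upper limit of unlisted values. On the left the metacercaria points lie between 15.3 and 113 RPM above both other stages, and on the right at 1.40 RPM or below.

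Of the other entries counted in eggs against metacercariae, the 5 higher in eggs were novel_mir155 at 7.11 times (6.79 to 7.45), novel_mir55 (DF143069, 331582 to 331656) at least 20.2 times, novel_mir113 (DF143883, 698780 to 698836) at least 15.6 times, novel_mir60 at least 12.3 times and novel_mir64 at least 7.67 times. novel_mir55 had 31 tags in adults and 92 in eggs, novel_mir113 had 75 and 71, and neither was listed in metacercariae. All 5 calls were lost with the authors' RPM, where novel_mir155 had a log2 ratio of 1.84. With 0.2 RPM added on that scale, those of novel_mir64 and novel_mir155 were lost. novel_mir155 also stood 3.11 times higher in eggs than in adults (2.97 to 3.27), and novel_mir14 3.47 times (3.13 to 3.86) and novel_mir40 3.37 times (2.46 to 4.71). These did not reach the 4-fold limit on miRNA totals, and they did with median-of-ratios size factors, together with novel_mir60 and novel_mir150.

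The 12 entries lower in eggs than in adults were novel_mir18, novel_mir23, novel_mir24, novel_mir26, novel_mir28, novel_mir47, novel_mir52, novel_mir57, novel_mir59, novel_mir62, novel_mir102 and novel_mir161. novel_mir18 (DF143896, 392124 to 392181) held 288 RPM in adults and 50.5 in eggs, an adult to egg ratio of 5.72 (4.94 to 6.64). Of the 12, 7 were unlisted in eggs, and the largest bounds after novel_mir52 were those of novel_mir57 (at least 11.4 times higher in adults) and novel_mir161 (at least 11.1 times). The calls of novel_mir18, novel_mir24, novel_mir26, novel_mir28, novel_mir47 and novel_mir59 were lost with median-of-ratios size factors. With the authors' RPM those of novel_mir57 (log2 -1.89), novel_mir161 (log2 -1.86), novel_mir23, novel_mir26, novel_mir47, novel_mir59, novel_mir62 and novel_mir102 were lost. With 0.2 RPM added on that scale, that of novel_mir47 alone was lost.

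The 20 entries lower in metacercariae than in adults were, besides novel_mir41, novel_mir52, novel_mir143 and novel_mir150, novel_mir35, novel_mir42, novel_mir44, novel_mir55, novel_mir57, novel_mir59, novel_mir62, novel_mir102, novel_mir113, novel_mir119, novel_mir126, novel_mir141, novel_mir161, novel_mir163, novel_mir167 and novel_mir178. novel_mir57 and novel_mir161 had the largest bounds of these, at least 22.4 times and 21.9 times higher in adults. Among those listed in both libraries novel_mir44, with 81 tags in adults and 19 in metacercariae, had a ratio of 10.2 (6.15 to 17.9). novel_mir119, with 332 and 87 tags, had a ratio of 9.16 (7.21 to 11.7). With the authors' RPM, 3 of the 20 remained counted as lower, novel_mir41, novel_mir52 and novel_mir143. With 0.2 RPM added on that scale, 9 of the 20 did.

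Steady levels were the exception among the 31 entries listed in all stages. The highest stage exceeded the lowest by a median of 4.42 times, by under 2 times in 5 entries and by at least 10 times in 4. The steadiest was novel_mir140 (DF143088, 253180 to 253245), with 20, 24 and 50 tags in adults, eggs and metacercariae, or 5.61, 5.53 and 5.84 RPM. The others under 2 times were novel_mir114, novel_mir108, novel_mir48 and novel_mir120. Adults were the highest stage in 21 of 31 entries, metacercariae in 6 and eggs in 4. On the authors' RPM these numbers were 14, 14 and 3, so the lead of adults rested on the scale, while eggs were seldom highest on either. Steadiness rested on the scale too. With the authors' RPM the range was 2.37 times for novel_mir140, 2.22 for novel_mir114, 3.74 for novel_mir108 and 3.75 for novel_mir48. Only novel_mir120 of the 5 stayed under 2 times there (1.34), and novel_mir58 (1.40) and novel_mir163 (1.94) joined it. Highest stages and ranges were not counted over all miRNAs. On the scale of miRNA tags, the median log2 ratio over all miRNAs compared was -0.60 for eggs and -0.75 for metacercariae, each against adults.

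Hairpin spans, which the choice of entries did not use, had similar medians in both sets of predicted miRNAs. The deposited intervals covered a median of 62 nucleotides in the 81 entries, with quartiles of 56 and 72 and a range of 39 to 87. On other scaffolds the median of 54 predicted miRNAs was 61, with quartiles of 53.2 and 75.2. The longest was novel_mir58 (DF143293, 159225 to 159311) at 87 nucleotides, with 15 tags in adults, 21 in eggs and 15 in metacercariae. Next came novel_mir108 (DF143677, 33029 to 33114) at 86, with 56, 74 and 221 tags, and novel_mir107 (DF143503, 161729 to 161811) at 83, with 10 tags in metacercariae alone. The shortest were novel_mir59 at 39 nucleotides and novel_mir103 (DF144257, 46076 to 46118) at 43, the latter with 17 tags in metacercariae alone. novel_mir44 (DF142988, 7099 to 7143) and novel_mir169 (DF144571, 19361 to 19405) covered 45 each. Long and short intervals were thus found both in entries of all stages and in those of 1 stage. Entries of all 3 stages had a median of 64, those of 2 stages 59 and those of 1 stage 62. Across the 81 entries, which come from the same libraries, span and summed tags had a Spearman's rho of 0.03.

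No entry had a neighbour. The 81 lay on 81 different scaffolds, so no pair of them shared one, and 0 of 81 had another predicted miRNA, a vesicle-only predicted miRNA or a piRNA locus within 10 kb. On other scaffolds 3 of 54 predicted miRNAs had one. The piRNAs of the 3 stages come from 176 loci of LTR/Gypsy retrotransposons, the mobile elements against which piRNAs act in many animals. These loci lay on the same scaffold as 7 entries, at gaps of 87599 to 421831 bases, the nearest being that of novel_mir175. A window of 50 kb therefore also gave 0. Known miRNAs carry no coordinates in these tables, so a cluster with a known miRNA could not be seen here.

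Vesicles held a counterpart of 5 of the 81 entries, matched by overlapping intervals because the vesicle table numbers its predictions anew. The 5 intervals differed from the stage intervals by at most 2 bases at either end. Ratios were scaled to the 51 miRNAs named in both tables. novel_mir40 (DF143173, 215451 to 215527) had 95 tags in vesicles and 49 in adults, a ratio of 20.9 (14.6 to 30.1). novel_mir141 (DF143185, 97216 to 97285) had 51 and 77 tags, a ratio of 7.13 (4.91 to 10.3), and novel_mir34 (DF144396, 8990 to 9050) had 94 and 206 tags, a ratio of 4.91 (3.81 to 6.30). All 3 were counted as higher in vesicles, though novel_mir34 fell to 3.75 times with the authors' RPM and was then not counted.

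novel_mir120 (DF143956, 262726 to 262779) had 44 tags in vesicles and 172 in adults, a ratio of 2.76 (1.93 to 3.86), and was not counted. novel_mir75 had 32 and 1433 tags. Its adult level was 4.16 times the vesicle level (2.93 to 6.10), which was counted as lower, but with totals of all miRNA tags the vesicle to adult ratio was 0.264 and was not. Over the 51 entries 11.8% were higher and 43.1% lower in vesicles. The median log2 ratio was 2.28 over the 5 entries and -1.50 over the 51. An entry had to be predicted anew in the vesicle library, from 10 tags or 33.1 RPM of miRNA tags, to be matched at all. novel_mir40 and novel_mir141 held 13.7 and 21.6 RPM in adults. On that scale they could be matched only by standing higher in vesicles. Neither the counts nor the median of the 5 are therefore read against that background.

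**Figure D5:**
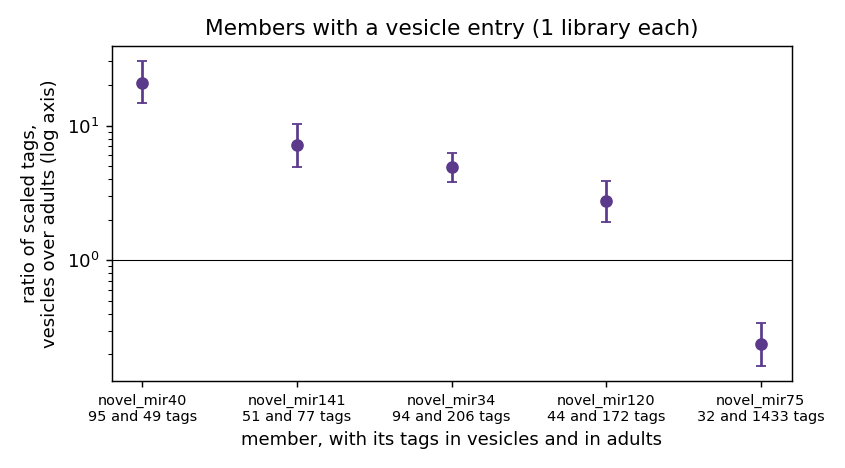
Ratio of scaled tags in vesicles to those in adults on a log axis for the 5 entries with a vesicle counterpart, with exact 95% counting intervals and 1 library each. The ratios run from 20.9 for novel_mir40 down to 0.241 for novel_mir75, which alone lies below 1.

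The remaining 76 entries had no vesicle counterpart, among them novel_mir7 and novel_mir155, the leading pair in adults. A predicted miRNA of 10 tags is 33.1 RPM of the vesicle miRNA total. In adults 23 of the 81 entries stood at or above that level, of which 3 were matched and 20 were not. The other 58 were below it or unlisted in adults, and 2 of them, novel_mir40 and novel_mir141, were matched. The vesicle predictions were made separately, so an unmatched entry has no upper limit in vesicles, and nothing is said of its absence there.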

How the data were processed

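Deposited values are raw tag counts. Their sum equalled the total that the file headers state for each library. The column that the authors headed TPM matched RPM of annotated tags to rounding. The deposited vesicle scaffold table holds tag counts per scaffold. The sources used here do not give the aligner, prediction program or genome build, and coordinates are as deposited, 1-based, with no strand. Both tables of each stage, for piRNAs and miRNAs, held identical ids and counts. Entries, left-out ids and comparisons were chosen with earlier results of these data known, and the left-out ids were chosen for their stage levels.

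Counts were scaled to miRNA tags with Python 3.11.15, numpy 2.4.6 and scipy 1.17.1. Ratios carry exact conditional binomial intervals, and the size rule was run on simulated counts with counting error only. That simulation held no variation between libraries and no unlisted values, so it cannot show how the rule does with either. Entries picked for fuller values had the 12 highest mean levels or up to 5 of the largest ratios each way per comparison. Entries with vesicle counterparts, the 3 longest, the 3 shortest and the 3 most tagged single-stage entries were added. Not every tag count, level and interval of these is printed. 1 deposited column of counts of another species was not used.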

Additional observations from a re-analysis of the deposited data

Results flagged for a closer look

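The vesicle table lists 12 predicted miRNAs on DF14 scaffolds, of which 6 overlap no entry of the stage tables. They are given here because they come from a library that the stage comparisons do not use. Every listed prediction has at least 10 tags, so their tag counts alone do not set them apart. The entry on DF144230 (137114 to 137187) had 1356 tags, or 4490 RPM of vesicle miRNA tags (4255 to 4735). The entry on DF144495 (14841 to 14898) had 117 tags, that on DF143386 had 77, that on DF143504 had 30, that on DF144915 had 13 and that on DF144138 had 10. None of the 6 lies on a scaffold of the 81 stage entries.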

How the results depend on the processing

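No paired analysis was possible because each group has 1 library, and no library could be left out of a comparison for the same reason. Counts are given as higher and lower entries for eggs against adults, metacercariae against adults and eggs against metacercariae, which were 0 and 12, 5 and 20, and 8 and 7. With 5 RPM added they were 0 and 6, 4 and 13, and 5 and 6. With a 2-fold limit and the interval beyond 1 they were 7 and 30, 10 and 30, and 18 and 13. With unlisted values taken as 0 they were 4 and 17, 16 and 24, and 10 and 19. With the authors' RPM they were 0 and 4, 8 and 3, and 3 and 9. With that scale and 0.2 RPM added, a setting chosen after seeing the data, they were 1 and 11, 11 and 9, and 6 and 11. With median-of-ratios size factors they were 5 and 6, 6 and 11, and 8 and 7. The percents over all miRNAs, in the same order, were 6.59 and 15.0, 8.24 and 18.1, and 12.9 and 15.1 with 5 RPM added. With the 2-fold limit they were 15.0 and 44.3, 15.9 and 42.9, and 26.9 and 25.3. With unlisted values as 0 they were 11.4 and 26.9, 15.9 and 26.4, and 18.3 and 24.7. The authors' RPM with 0.2 RPM added gave 7.19 and 18.6, 18.1 and 11.5, and 12.4 and 23.7. Without the most abundant miRNA, and with at least 50 tags in the higher library, each count stayed within 1.5 times of the main one. None of these settings could change the sign of a counted entry, so kept signs are not read as stability. The cause of each change was not tested. Of 33 single-stage entries 17 had at least 20 tags. Of predicted miRNA tags the 81 entries held 7.62% in adults, 2.16% in eggs and 9.84% in metacercariae, and of annotated tags 0.171%, 0.134% and 0.291%. Without novel_mir7, left out after seeing the data, their shares of miRNA tags were 0.335%, 0.365% and 0.262%. Of 5 vesicle matches 0 had the same start and end. novel_mir34 had a vesicle ratio of 3.75 with the authors' RPM, and novel_mir75 one of 0.264 with the miRNA totals. The listing minimum limits what can be said of scarce entries, since 10 tags are 2.80 RPM in adults, 2.30 in eggs and 1.17 in metacercariae.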

Other observations

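A predicted miRNA can hold more tags than its scaffold in the vesicle library. The 27 vesicle predictions all lie on scaffolds with a row in the scaffold table, and 5 of them had more tags than that row. The entry on DF144230 had 1356 tags against 622 for the scaffold, and the entry on LN627598 had 10394 against 4185. Scaffold tags summed to the 2235582 mapped tags. The 5 matched entries of the 81 had fewer tags than their scaffolds, for example novel_mir34 with 94 of 174 and novel_mir141 with 51 against 10041.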
